A study of Rattus norvegicus with 110 samples.

Results

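The 200 genes described here are those most enriched in liver over kidney in untreated F2 rats. They were chosen from mean CPM (a gene's estimated count scaled to one common library total) in vehicle animals, as the largest log2 ratios of liver to kidney, with 0.1 CPM added to each, among the 2176 genes with a mean vehicle liver level of 50 CPM or more. All 200 passed the filter on low counts, as did 59.4% of the 31998 genes in the files. The ratio ran from 17.76 for the first gene to 6.17 for the last, with a median of 10.44. The last 3 genes inside the set had ratios of 6.28, 6.23 and 6.17, and the first 3 outside it 6.14, 6.05 and 5.93. These values chose the genes and are a description. Mean vehicle liver levels ran from 53.2 to 103655 CPM (median 534 CPM), and 22 of the 200 had no count in any of the 27 kidney libraries.

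Genes expressed far more in liver than in kidney are mostly those by which hepatocytes make plasma proteins, dispose of amino acids, handle glucose and metabolize drugs and steroids. Carbon tetrachloride (CCl4) is a hepatotoxicant that cytochrome P450 enzymes, mainly in the hepatocytes around the central vein, convert to a reactive radical. Repeated doses cause necrosis, inflammation and fibrosis, and loss of hepatocyte-specific expression is a known feature of injured liver.

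The animals were outbred male Sprague Dawley rats of the F2 generation. They received olive oil (vehicle), 8% CCl4 or 50% CCl4 in olive oil by oral gavage at 0.5 mL per kg, 3 times a week, with sampling at day 39. Each dose was given to 4 cohorts that differ in their treated forefathers, who had received 50% CCl4 and recovered before mating: cohort A had none, cohort B a treated F1 sire, cohort C a treated F0 grandsire and cohort D both. In liver, groups 11 to 13 were the vehicle, 8% and 50% animals of cohort A, groups 14 to 16 those of cohort B, groups 17 to 19 those of cohort C and groups 20 to 22 those of cohort D. Each group had 7 males, apart from group 17 with 6, which gave 27 vehicle, 28 low-dose and 28 high-dose livers. Kidney was measured in the vehicle animals alone. The males came from 34 litters and 17 F0 sires and were necropsied on 4 dates that each held all 3 doses.

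Liver libraries held between 31638559 and 51343589 counts and kidney libraries between 21961746 and 35055218. Of the vehicle livers, replicate 3 of group 17 had the lowest median correlation with its own group (0.958, against 0.967 for the next). Of the high-dose livers it was replicate 5 of group 22 (0.939, against 0.956). Values without these livers are given beside the results that they moved most. In bulk tissue, fewer cells of a type and less RNA per cell cannot be told apart.

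By symbol, 7 of the 200 genes are described. The symbols come from lists that the study chose for effects of ancestry in these samples, so the 7 are not a sample of the 200. Pfkfb1 is the liver form of the enzyme that sets fructose 2,6-bisphosphate. Cyp1a2 is a cytochrome P450 of drug metabolism found around the central vein. Tat begins tyrosine breakdown and Amdhd1 acts in histidine breakdown. Mfsd2a carries lysophospholipids, Cdh17 is a cadherin, and Cd5l is secreted by macrophages. Of a list of 16 hepatocyte markers only Tat had a symbol, and the rule chose Tat for its liver-to-kidney ratio, so the hepatocyte identity of the set could not be checked from these symbols.

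Promoters were on file in RefSeq (GRCr8) for 4 of the 7, and the pair shown are those of the P450 and of the first enzyme of tyrosine breakdown described here, whose responses to CCl4 were not tested against each other. Each line gives the 250 bases before the start site, 5′ to 3′ on the gene's strand, Cyp1a2 at chr8:66978150-66978399 on the minus strand and Tat at chr19:54856354-54856603 on the plus strand. Capitals mark matches on either strand to the TATA box letters (TATAAA), the CCAAT box letters, the core of the dioxin response element (GCGTG), the core of a nuclear receptor site (AGGTCA) or the core of an HNF1 site (GTTAAT).
Cyp1a2: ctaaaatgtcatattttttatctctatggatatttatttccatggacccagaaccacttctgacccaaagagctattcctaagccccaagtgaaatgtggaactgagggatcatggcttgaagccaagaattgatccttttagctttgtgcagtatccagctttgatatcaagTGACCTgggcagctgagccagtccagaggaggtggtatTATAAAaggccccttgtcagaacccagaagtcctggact
Tat: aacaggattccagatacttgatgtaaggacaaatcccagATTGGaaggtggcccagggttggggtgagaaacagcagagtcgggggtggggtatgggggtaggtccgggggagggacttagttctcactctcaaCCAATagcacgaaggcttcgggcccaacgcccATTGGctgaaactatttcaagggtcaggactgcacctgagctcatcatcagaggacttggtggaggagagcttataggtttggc
The Cyp1a2 window held the TATA box letters 39 bases before the start and the nuclear receptor core on the other strand, and the Tat window held the CCAAT letters at 3 places. Among 33469 promoters of the same length, the TATA box letters were in 12.9%, the CCAAT letters in 34%, the dioxin response core in 25.9%, the nuclear receptor core in 14.1% and the HNF1 core in 6.45%. The dioxin response and HNF1 cores were in neither window. A match describes the letters and not a site in use.

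In vehicle liver the 200 genes made up a large part of all counts, and a smaller part after CCl4. The shares are described without a test. Their summed share of the library was between 38.8% and 46.3% in the 27 vehicle livers (median 42.4%), between 33.4% and 43.0% at 8% (median 39.5%) and between 14.8% and 40.8% at 50% (median 29.9%). Without replicate 3 of group 17 the lowest vehicle share was 40.7%, and without replicate 5 of group 22 the lowest share at 50% was 22.4%. The vehicle and low-dose ranges overlapped, and the high-dose range reached into both. In vehicle kidney the share was between 0.0450% and 0.0697%.

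**Figure D1:**
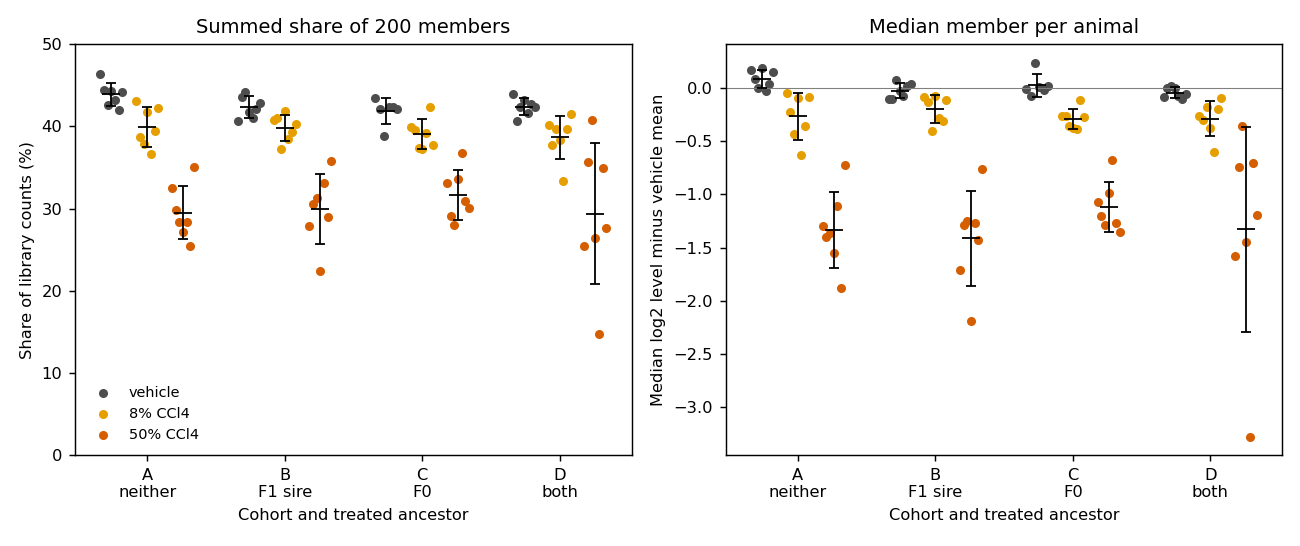
Left, the share of each liver library's counts taken by the 200 genes, in percent; right, the median over the 200 genes of the log2 normalized count minus its mean in vehicle livers. Points are animals, coloured by dose, in cohorts A to D, and bars are the mean and SD (n = 7, 6 in the vehicle group of cohort C). The high-dose animals of cohort D run from 14.8% to 40.8%.

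Within the high-dose animals the spread was widest in cohort D, where the share was 29.4% ± 8.58 (SD, n = 7), against 29.5% ± 3.28 in cohort A, 29.996% ± 4.26 in cohort B and 31.6% ± 3.01 in cohort C (n = 7 each). The lowest value, 14.8%, was replicate 5 of group 22 and the highest, 40.8%, replicate 3 of the same group. Without replicate 5 cohort D was at 31.8% ± 6.21 (SD, n = 6). The single most abundant of the 200 took between 5.06% and 14.7% of counts in vehicle livers and between 2.34% and 11.4% at 50%, and the lowest values were 9.08% without replicate 3 of group 17 and 3.47% without replicate 5 of group 22. Without the 10 most abundant, the other 190 still took a median of 19.6% in vehicle livers and 14.2% at 50%.

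At 8% CCl4 most of the 200 were slightly lower than in vehicle livers and few passed the fold threshold. The median log2 fold change was -0.29, against 0.00 over all genes tested and -0.08 over the other 1976 genes at 50 CPM or more, and 188 of the 200 were below 0. Changes were called at an adjusted p under 0.1 in edgeR's quasi-likelihood test with an absolute log2 fold change over 1. By that rule 2 of the 200 fell and 0 rose, where 0.505% of all genes tested fell and 5.76% rose. Without the fold threshold 105 were lower and 1 higher, where 10.5% and 17.9% of all genes tested were, and 117 of the 200 (58.5%) had an unadjusted p under 0.05, as did 33.3% of all genes. DESeq2 also called 2 lower and 0 higher. Because the vehicle livers that chose the genes are also the controls, each dose effect was read again in a cohort that took no part in the choice: the median in the 4 cohorts was then between -0.35 and -0.19.

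At 50% CCl4 the 200 fell broadly. By the same rule 126 fell (63%) and 1 rose, where 6.73% of all genes tested fell and 18.5% rose. Of the other genes at 50 CPM or more, 237 of 1976 fell (12%). The median log2 fold change was -1.21 over the 200, -0.34 over those other genes and 0.01 over all genes tested. Of the 200, 17 fell by over 3 on the log2 scale, 19 by 2 to 3 and 90 by 1 to 2, while 66 lay between -1 and 0 and 8 above 0. In genes chosen without the cohort read, the median lay between -1.32 and -1.04 over the 4 cohorts, and 107 to 141 fell.

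**Figure D2:**
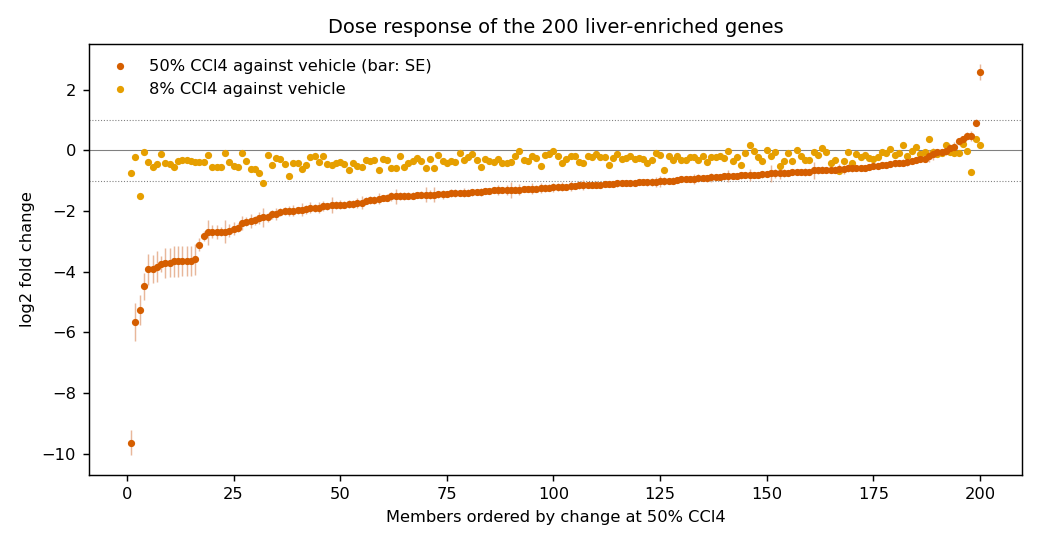
Log2 fold change of each of the 200 genes, ordered along the horizontal axis by the change at 50% CCl4; red points are 50% against vehicle with the standard error as a bar, orange points 8% against vehicle, dotted lines mark a log2 fold change of 1 in each direction. The red points run from -9.64 to 2.59, and the orange points from -1.49 to 0.39.

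The high-dose animals differed in how far the set had fallen. Per animal, the median of the 200 relative to vehicle livers ran from -3.28 to -0.36 at 50% CCl4 (median of animals -1.28, n = 28), from -0.63 to -0.04 at 8% (n = 28) and from -0.10 to 0.24 in vehicle livers (n = 27). The lowest, -3.28, was replicate 5 of group 22, and the next was -2.19. The medians of the high-dose and the vehicle animals did not overlap. Of the 200 genes, 47 (23.5%) were lower in every high-dose than in every vehicle liver, where 0.963% of all genes tested were. Of the 200, 0 were higher in every one, where 2.81% of all genes tested were. Without replicate 3 of group 17, those lower in every high-dose liver were 55 of the 200, and 1.13% of all genes tested. The mean coefficient of variation within groups had a median of 39.8% over the 200 at 50% CCl4, against 22.4% in vehicle livers and 21.4% at 8%. Over the other genes at 50 CPM or more it was also higher at 50%, at 22.3% against 16.7% and 15.4%. Without replicate 3 of group 17 the vehicle value was 16.6%, and without replicate 5 of group 22 the high-dose value was 37.1%.

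High-dose against low-dose animals use no sample that chose the genes. Here 88 fell and 2 rose, where 4.99% of all genes tested fell and 11% rose, and the median was -0.92 against 0.02 over all genes tested. Of the other genes at 50 CPM or more 6.28% fell. With no fold threshold, 182 of the 200 were lower and 5 higher at 50% than at 8%, where 31.1% and 33.7% of all genes tested were.

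These values depended on how libraries were scaled, and the 200 take a large part of the liver libraries. Whether that share accounts for the dependence was not tested. With library totals in place of TMM factors, the median of all genes tested at 50% CCl4 was 0.62 and that of the 200 was -0.67. Counted that way 61 fell and 4 rose at 50%, where 2.34% and 32.7% of all genes tested did, and 45 fell against the low dose, where 2.44% did. Relative to all genes the set was lower by both scalings.

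Many of the deepest falls were in short transcripts that moved as one. Lengths here are the deposited averages, which went down to 9.78 bases and so are not full transcript lengths. Ordered by them, the shortest 50 of the 200 had a median of -1.82 at 50% CCl4, against -1.08 for the longest 50. By the order of the liver-to-kidney ratio, the 4 successive sets of 50 had medians of -1.23, -1.31, -1.21 and -1.12. Among the 200, 9 sets totalling 28 genes were linked, each gene to at least 1 other of its set, by deviations from the group means that correlated at over 0.95 across the 83 livers, a limit chosen after seeing the data. Without replicate 5 of group 22 there were 6 such sets of 22 genes. The largest set held 11 genes, with correlations of 0.90 or more between all its pairs, with transcript lengths between 86.8 and 678 bases, of which 7 had no count in kidney, and its log2 fold changes at 50% lay between -5.26 and -3.59. Near-identical gene copies that share reads would not be separate measurements, and whether these 11 are such copies was not tested. Counting each set once left 181 units, of which 107 fell (59.1%), with a median of -1.13. The 36 units among the shortest 50 then had a median of -1.45, and the 49 among the longest 50 a median of -1.06. Of the 13 among the shortest 50 that fell by over 3 on the log2 scale, 11 were that largest set.

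**Figure D3:**
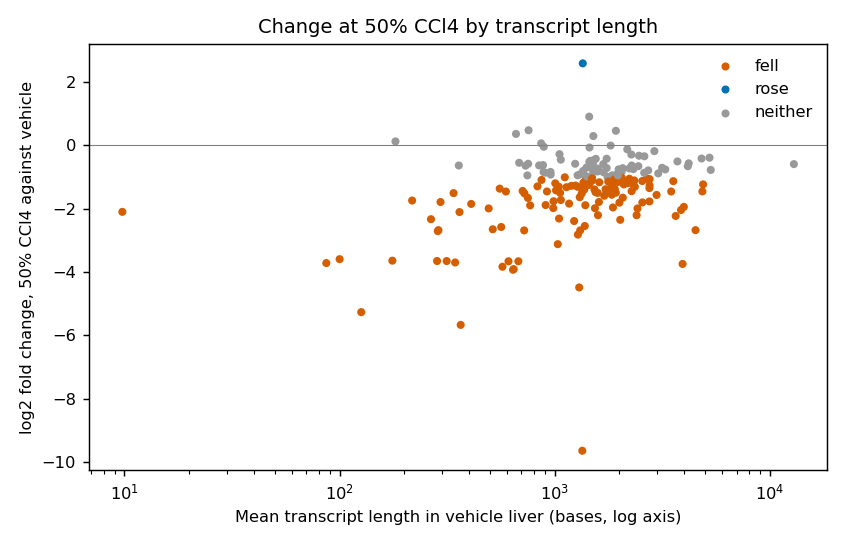
Log2 fold change at 50% CCl4 against vehicle (vertical axis) by mean transcript length, as deposited, in vehicle liver in bases (horizontal axis, log scale) for the 200 genes. Red genes fell, blue rose and grey did neither. The shortest 50 have a median of -1.82 and the longest 50 a median of -1.08, or -1.45 and -1.06 with each set of linked genes counted once.

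The gene with the deepest fall, ENSRNOG00000008050.4, stood between 18.8 and 215 CPM in vehicle livers (median 66.9; highest 133 CPM without replicate 3 of group 17), between 3.50 and 152 CPM at 8% (median 51.7) and between 0 and 0.746 CPM at 50% (median 0.0615). No high-dose liver reached the lowest vehicle or low-dose liver. Levels of this gene at 50% were near the floor of the counts, so the size of its fall depends on the depth. The log2 fold change was -9.64 ± 0.41 (SE; edgeR adjusted p = 1.43e-33) at 50% and -0.75 ± 0.26 (adjusted p = 0.0275) at 8%. ENSRNOG00000043131.3 fell from a median of 742 CPM to 1.43 CPM, with a highest value of 174 CPM at 50% and a lowest of 250 CPM in vehicle livers, and its log2 fold change was -5.67 ± 0.63 (adjusted p = 9.19e-13). At 8% its median was 852 CPM, and its log2 fold change of -0.22 did not pass the test (adjusted p = 0.826).

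The exception among the 200 was ENSRNOG00000047945.2, the 1 gene called higher at 50%. It stood between 25.3 and 679 CPM in vehicle livers (median 112), between 40.8 and 525 CPM at 8% (median 161) and between 304 and 3392 CPM at 50% (median 1221), so the vehicle and high-dose ranges overlapped. Its log2 fold change was 2.59 ± 0.27 (edgeR adjusted p = 8.74e-14), and it was called higher in all 4 cohorts. ENSRNOG00000045679.2 rose between the doses (log2 fold change 1.18 ± 0.17, adjusted p = 9.45e-09), from a median of 921 CPM at 8% to 2490 CPM at 50%, beside 1340 CPM in vehicle livers. Against vehicle it was at 0.48 and not called, but was called with library totals (1.06).

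Pfkfb1 passed the fold threshold at neither dose. It stood between 19.1 and 85.1 CPM in vehicle livers, between 20.2 and 71.5 CPM at 8% and between 12.97 and 84.2 CPM at 50%, with overlap between all 3 doses. Without replicate 5 of group 22 the lowest value at 50% was 22.8 CPM. Pfkfb1 had medians of 56.2, 47.0 and 57.0 CPM at vehicle, 8% and 50%, and its normalized log2 changes were -0.41 and -0.59 (edgeR adjusted p = 0.0219 and 0.000111). With library totals its change at 50% was -0.02.

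Cyp1a2 was lower at 50% by an amount that depended on 1 vehicle liver. It stood between 151 and 3672 CPM in vehicle livers (median 300.2), between 172 and 564 CPM at 8% (median 395) and between 64.0 and 463 CPM at 50% (median 216), and the 3 ranges overlapped. Without replicate 5 of group 22 the lowest value at 50% was 97.8 CPM. The log2 fold change at 50% was -1.26 ± 0.19 (edgeR adjusted p = 1.92e-08). Without replicate 4 of group 14, which held the value of 3672 CPM, it was -0.97 (adjusted p = 4.49e-08) and no longer passed the fold threshold, and the change at 8% went from -0.17 to 0.12, called in neither fit. Against the low dose, which does not use that animal, Cyp1a2 fell by 1.09 on the log2 scale (adjusted p = 8.64e-07). With library totals the change at 50% was -0.71 against vehicle and -0.71 against the low dose, and neither passed the fold threshold.

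Of the amino acid genes, Amdhd1 was called at 50% and Tat was not, a difference that was not tested. Tat stood between 265 and 1595 CPM in vehicle livers (median 537), between 336 and 2680.2 CPM at 8% (median 641.9) and between 328 and 1890.3 CPM at 50% (median 883), and its log2 fold change at 50% of -0.12 ± 0.19 did not pass the test (edgeR adjusted p = 0.588). With library totals that change was 0.46. Amdhd1 went from a median of 61.9 CPM in vehicle livers and 63.9 CPM at 8% to 46.9 CPM at 50%, with a log2 fold change of -1.02 ± 0.17 (adjusted p = 3.43e-07). It lay just past the fold threshold, and was -0.96 and not called without replicate 5 of group 22. With library totals it was -0.45 and not called.

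Mfsd2a fell at 50%, while Cdh17 and Cd5l were not called. Mfsd2a stood between 19.5 and 277 CPM in vehicle livers (median 96.6) and between 10.04 and 143 CPM at 50% (median 33.7), with a log2 fold change of -1.80 ± 0.26 (edgeR adjusted p = 5.29e-09), or -1.23 and still called with library totals. Cdh17 had medians of 101 and 70.5 CPM (log2 fold change -0.76 ± 0.29, adjusted p = 0.0174, and -0.15 with library totals). Cd5l had medians of 79.7 and 126 CPM, a log2 fold change of -0.00 ± 0.16 by TMM and 0.60 by library totals.

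**Figure D4:**
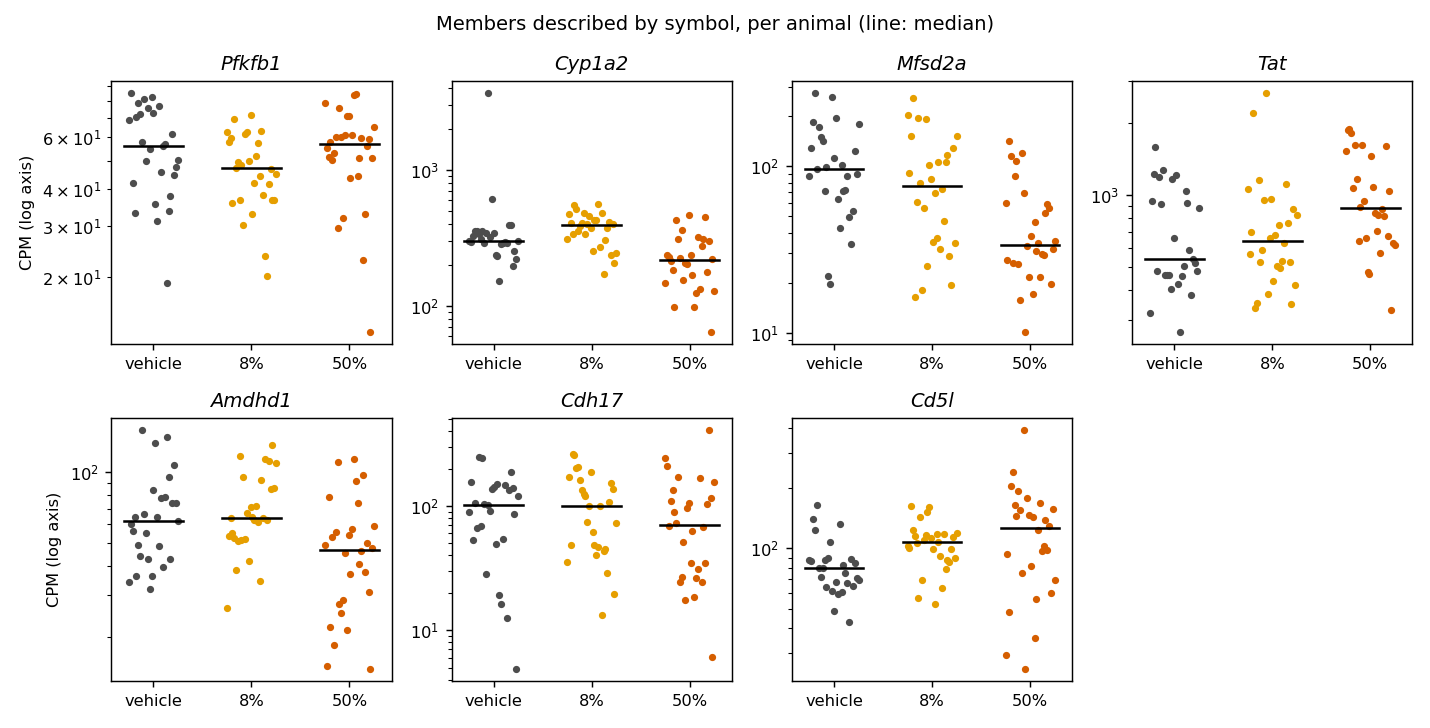
CPM (log axis) of the 7 genes described by symbol in each liver, at vehicle (27 animals), 8% and 50% CCl4 (28 each); the line is the median. The Mfsd2a medians are 96.6, 76.6 and 33.7 CPM, and 1 vehicle liver stands at 3672 CPM for Cyp1a2.

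Few other genes of the same pathways had a symbol. Of 46 cytochromes P450 listed, 3 could be matched, and at 50% CCl4 Cyp1a2 fell while Cyp1a1 (log2 fold change 3.81, edgeR adjusted p = 8.00e-10) and Cyp2c24 (3.89, adjusted p = 4.94e-21), which are not among the 200, rose. Of 54 genes of amino acid and one-carbon breakdown 5 could be matched, of which 2 fell and 0 rose. These matches come from the same ancestry lists.

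Few markers of other cells had a symbol, and most of those were not called at 50% CCl4. Of the 20 macrophage markers 5 had one, Cd5l among them, and 0 were called at either dose, with a median log2 fold change of 0.24 at 50%. The summed level of the other 4 was between 112 and 205 CPM in vehicle livers (median 148), between 120 and 285 CPM at 8% (median 177) and between 161 and 475.3 CPM at 50% (median 255), on library totals, by which the median of all genes tested was also higher at 50%, by 0.62 on the log2 scale. Of the 17 endothelial markers 3 had a symbol, of which Kdr fell (log2 fold change -1.05, edgeR adjusted p = 4.60e-15) and the other 2 were not called, and the 1 cholangiocyte marker of 16 was not called (-0.44). Cd4, the 1 lymphocyte marker of 18 with a symbol, rose (log2 fold change 1.15, edgeR adjusted p = 8.76e-21). None of the 22 stellate cell and myofibroblast markers had a symbol. With so few matched, these lists are void as a check of cell composition, and their part in the fall of the 200 was not tested.

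The fall at 50% CCl4 was present in each cohort. By cohort A, B, C and D, 142, 131, 108 and 110 of the 200 fell, where 6.31%, 8.14%, 7.27% and 6.01% of all genes tested did, with medians of -1.32, -1.32, -1.04 and -1.06. In all 4 cohorts 96 of the 200 fell, where 2.66% of all genes tested did. The test of whether the dose effect differed between cohorts called 0 of the 200 and 0 of all genes tested (0%) at either dose, by edgeR's quasi-likelihood test with 3 numerator degrees of freedom. At an unadjusted p under 0.05 it held 3 of the 200 (1.5%) at 50%, and 8.11% of all genes tested. At 8% it held 1 of the 200 (0.5%), and 4.82% of all genes tested. DESeq2 called 0 of the 200 at both doses. The lower counts in cohorts C and D are therefore not shown to differ from those in A and B. Within each of the 4 necropsy dates the median over the 200 at 50% was between -1.53 and -1.13. The -1.53 was on date 3, which was at -0.99 without replicate 5 of group 22.

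Few of the 200 were called for ancestry. Effects of F0 and F1 treatment were terms beside the F2 dose and were called at an adjusted p under 0.1 with a mean normalized count over 50. For a treated F0 grandsire 1 of the 200 was higher (0.5%) and 6 lower (3%), where 3.88% of all genes tested were higher and 3.45% lower. Of the other 1976 genes at 50 CPM or more, 88 were higher and 90 (4.55%) lower. The share lower was near that of all genes tested, so it is not particular to the 200. The median over the 200 was 0.04. For a treated F1 sire 0 were called (0.0474% of all genes tested), 4 of the 200 (2%) had an unadjusted p under 0.05, as did 10.3% of all genes, and DESeq2 called 0. Between vehicle livers of cohorts D and A 0 of the 200 were called, where 5.53% of all genes tested were, 6 of the 200 (3%) had an unadjusted p under 0.05, as did 17.3% of all genes, and DESeq2 called 0.

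The genes described by symbol come from lists of such effects, so their being called is not independent evidence. Amdhd1 was higher by 0.46 ± 0.14 on the log2 scale (SE; edgeR adjusted p = 0.0328), and its difference was above 0 in each of the 6 combinations of F1 treatment and dose, between 0.22 and 0.88, and on each date, between 0.24 and 0.53. Of the 6 lower genes, 5 were Mfsd2a (-0.59), Cyp1a2 (-0.48), Tat (-0.44), Cd5l (-0.34) and Pfkfb1 (-0.33), with adjusted p-values between 0.0581 and 0.0985 in the same test. Cdh17 was at -0.65 and was not called (adjusted p = 0.118). Cd5l and Cyp1a2 were below 0 in all 6 combinations and on all 4 dates. The others were not: Mfsd2a was below 0 in 3 of the 6 combinations, those without a treated F1 sire, and reached 1.14 on date 3. Tat was below 0 in 5 combinations and on 2 dates, and Pfkfb1 in 5 combinations and on 3 dates, with 0.42 on date 2. Without replicate 4 of group 14 the Cyp1a2 difference was -0.26 and was not called, and without replicate 5 of group 22 Cd5l was at -0.32 and was not called.

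The F0 counts were not stable. Without replicate 5 of group 22, 8 of the 200 (of all genes tested, 5.13%) were higher and 5 (3.95%) lower. Without replicate 3 of group 17, 3 (5.02%) were higher and 6 (4.63%) lower. With the litter as a correlated block in limma-voom, 1 (2.43%) was higher and 3 (2.57%) lower, and of the genes above Amdhd1 and Pfkfb1 were still called, Mfsd2a, Cyp1a2, Tat and Cd5l were not, and Cdh17 was (log2 difference -0.90, adjusted p = 0.0435). Without date 4, 0 were higher (1.93%) and 0 lower (1.22%). In vehicle, low-dose or high-dose animals alone 0 were lower, while 1 was higher in low-dose animals and 0 in the vehicle or high-dose animals. Those fits use fewer animals, and the share of all genes in them is not given. Within dates, the median F0 difference over the 200 was 0.05, 0.15, -0.20 and -0.00 on dates 1 to 4, and the median F1 difference was -0.04, 0.01, -0.48 and 0.08. Date 3 had 12 livers, replicate 5 of group 22 among them, and without it the F0 and F1 medians on that date were 0.07 and -0.06.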

How the data were processed

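The authors prepared stranded mRNA libraries, quantified reads with Salmon 0.14.0 against Ensembl rat transcripts and summed them per gene with tximport in R 3.5.0. The deposited tables hold estimated counts, whole and not normalized, and other tables of average transcript lengths. CPM and TMM values were computed here. Groups came from the labels, and dates, litters and sires from the study's supplementary methods, which hold the pedigree and a randomized scheme of dosing and necropsy. Genes were kept where the counts of 1 group or more summed to over 10, and were fitted in R 4.3.3 with edgeR 4.0.16 (quasi-likelihood, Benjamini-Hochberg over all genes tested). Alternatives used DESeq2 1.42.0 and limma 3.58.1. The dose effects averaged 4 cohorts. The tests were tested on simulated data. The genes, lists and rules were chosen with earlier results of these data known. The rule for named genes (highest levels, largest changes, genes called and list members) could be applied only to genes with a symbol, apart from 2 unnamed identifiers per direction. 0 libraries were identical. A gene that the rule would name is not reported here. P-values for ancestry treat littermates as separate animals. Littermates of other dose groups had a mean residual correlation of 0.11 (68 pairs).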

Additional observations from a re-analysis of the deposited data

Results flagged for a closer look

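In 21 of 144 sets of 6 or 7 livers (12 groups, for the summed share and 11 genes) the highest or lowest animal stood apart from the others by Dixon's criterion. The values were not on a log scale, and every flag for a gene was on its highest animal. The criterion's rate of about 1 in 20 holds for independent, normally distributed values, so the 21 flags are no test of an excess. Of these, 5 were replicate 3 of group 17, the vehicle liver that correlated least with its group: its summed share was the lowest of the group at 38.8%, and it was the highest for Cd5l (132 CPM), ENSRNOG00000008050.4 (215 CPM), ENSRNOG00000043131.3 (3486 CPM) and ENSRNOG00000045679.2 (4278 CPM).

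In group 14, replicate 4 had Cyp1a2 at 3672 CPM, and in group 11, replicate 7 had ENSRNOG00000047945.2 at 679 CPM. Among low-dose livers, replicate 4 of group 15 had Tat at 2680.2 CPM. Among high-dose livers of group 13 the highest were Cyp1a2 (427 CPM), Pfkfb1 (78.8 CPM), ENSRNOG00000008050.4 (0.746 CPM) and ENSRNOG00000045679.2 (3698 CPM). In group 16 they were Tat (1627 CPM), Amdhd1 (110.0 CPM) and ENSRNOG00000043131.3 (75.3 CPM). In group 19 they were Cdh17 (168.5 CPM), ENSRNOG00000008050.4 (0.632 CPM), ENSRNOG00000043131.3 (174 CPM) and ENSRNOG00000045679.2 (10125 CPM). In group 22 they were Cdh17 (411 CPM) in replicate 4 and ENSRNOG00000047945.2 (3392 CPM).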

How the results depend on the processing

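The counts of this section come without the share of all genes tested in each run, so they describe how the runs differ. The count that fell at 50% CCl4 (126) was 187 with no minimum fold. At that dose 70.1% of all genes tested had an unadjusted p under 0.05 in edgeR. The count was 61 with library totals, 67 in the first 100 genes and between 107 and 142 in every other alternative run. Against the low dose (88) it was between 65 and 115 except with library totals (45), the first 100 genes (46) and no minimum fold (182). Genes higher at 50% were 4 with library totals, 6 with no minimum fold and 2 in cohort B or C alone, also with genes chosen without that cohort, and against the low dose 5 with no minimum fold and 1 in cohort A or B alone, likewise. At 8%, 1 fell without date 3, with library totals, in the first 100 genes and in cohorts A, B and D alone (also with genes chosen without them), 4 fell in cohort C alone, and with no minimum fold 105 fell and 1 rose. For F0, lower genes were 3 with date as a block, without date 2 and with litter or F0 sire as a correlated replicate block, 0 without date 4 and in vehicle, low-dose or high-dose animals alone, 2 in the first 100 genes and 1 at an adjusted p under 0.05. Higher genes for F0 were 2 with DESeq2, without date 1 and with a minimum of 10 CPM in the rule, 0 without date 2 or 4, in vehicle or high-dose animals alone and in the first 100, and 3 and 8 without the livers of groups 17 and 22 that stand apart. For cohort D against A, 1 was lower without date 2, without the group 22 liver and with a minimum of 10 CPM, and 1 higher with library totals. With the litter as a replicate block 129 fell and 1 rose at 50%, 94 fell and 2 rose against the low dose, and 2 fell at 8%. Subsets of animals test fewer samples, and for the other changes the cause was not tested. Library totals, the group 22 liver and the Cyp1a2 liver were added after seeing the data. Depth of at least 31638559 counts was not limiting at 50 CPM, the vehicle level that the rule asked for. It was limiting for the deepest falls at 50% CCl4. There ENSRNOG00000008050.4 had a median of 0.0615 CPM with 1 library at 0, and ENSRNOG00000043131.3 went down to 0.0286 CPM.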

Other observations

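The 200 genes varied together more among animals of a dose group as the dose rose. After centring each gene on its group, the median correlation over the 19900 pairs of genes was 0.04 in the 27 vehicle livers, 0.20 in the 28 low-dose and 0.60 in the 28 high-dose livers, and over pairs of the other genes at 50 CPM or more it was 0.04, 0.07 and 0.24. Without replicate 5 of group 22 the high-dose values were 0.42 and 0.16, and without replicate 3 of group 17 the vehicle values were 0.05 and 0.04. The genes of a pair share libraries and scaling, so these are descriptions.

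On a scale per transcript length as deposited, the 200 took between 37.4% and 44.4% of vehicle liver transcripts (median 41.0%) and between 11.7% and 36.5% at 50% CCl4 (median 24.9%), ranges that did not overlap. At 8% they took between 33.2% and 43.3% (median 37.5%), which overlapped both.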
